A study of Mus musculus with 22 samples.

Results

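Microtubules of the mouse hippocampus are built from alpha and beta tubulin, and the genes described here are the 8 beta tubulin isotypes with a count row in the mRNAseq table, Tubb1, Tubb2a, Tubb2b, Tubb3, Tubb4a, Tubb4b, Tubb5 and Tubb6. They were found by matching the Ensembl IDs of the table to gene symbols, and they are 8 of the 53379 genes counted. All 8 passed the filter on low counts, together with 40714 genes in all. The family was chosen by a measured value, the difference of Tubb6 between kainate and sham glia, which passed the threshold in these libraries. The values in that contrast are therefore a description without a test.

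Adult male C57/BL6N mice, acquired at 8 weeks and acclimatized for 4 weeks, received kainate above the right hippocampus, which starts status epilepticus, or a sham injection of saline. Only kainate mice with convulsive seizures were kept. The left hippocampus, contralateral to the injection (CLH), was taken 24 h later, although the sample protocol names the right side. From 8 mice per treatment, 1 pool of 4 and 2 pools of 2 hippocampi were made, and each was sorted on NeuN, a protein of neuronal nuclei. NeuN+ nuclei are called neurons and NeuN- nuclei glia here, a gate that can also hold endothelial cells, pericytes and some neurons. The groups are 3 libraries of kainate neurons, 3 of sham neurons, 3 of kainate glia and 2 of sham glia, since the preparation of sham glia number 2 failed. Pools are the replicates, so no value belongs to a single animal.

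Alpha and beta tubulin pair into dimers that polymerize head to tail into the microtubule wall. Beta tubulin holds the exchangeable nucleotide whose hydrolysis lets the polymer shrink. Its isotypes differ most in the acidic tail at the carboxyl end, where enzymes add chains of glutamate and motors and other proteins bind. In the brain, Tubb3 is widely used as a marker of neurons, Tubb2a and Tubb2b are abundant in neurons, Tubb4a is prominent in myelinating oligodendrocytes, Tubb4b and Tubb5 are made in many cells, Tubb6 is usually low, and Tubb1 belongs to platelets and their precursors. Cells also adjust tubulin mRNA to the amount of free dimer, by degrading it while it is translated.

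The last 60 coding bases are shown for the 6 most abundant isotypes, because this stretch encodes the acidic tail, and not for Tubb6 and Tubb1, read 5′ to 3′ on the coding strand of GRCm38. In Tubb2a (chr13:34074468-34074527, minus strand) and Tubb2b (chr13:34127471-34127530, minus strand) capitals mark the bases at which the pair differs. In Tubb3 (chr8:123421623-123421682, plus strand), Tubb4a (chr17:57080690-57080749, minus strand), Tubb4b (chr2:25222308-25222367, minus strand) and Tubb5 (chr17:35834982-35835041, minus strand) they mark the stop codon.
Tubb2a: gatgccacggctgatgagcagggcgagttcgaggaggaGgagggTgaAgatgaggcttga
Tubb2b: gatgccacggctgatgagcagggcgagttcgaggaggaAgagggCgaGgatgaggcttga
Tubb3: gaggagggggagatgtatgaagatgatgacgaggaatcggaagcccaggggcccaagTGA
Tubb4a: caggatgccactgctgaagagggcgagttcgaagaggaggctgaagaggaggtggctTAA
Tubb4b: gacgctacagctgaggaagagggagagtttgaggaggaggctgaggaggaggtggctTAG
Tubb5: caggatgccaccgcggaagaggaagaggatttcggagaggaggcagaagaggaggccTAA
Among the 19 sense codons of this stretch, 10 encode an acidic residue in Tubb3 and Tubb4a and 11 in the other 4 genes shown. Tubb2a and Tubb2b differ there at 3 bases.

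Sequence likeness limits what the counts can tell apart. The coding sequences of Tubb2a and Tubb2b differed at 47 of 1338 bases (96.5% identity), whereas the other pairs without Tubb1 were 80.7% (Tubb5 and Tubb6) to 86.5% (Tubb3 and Tubb6) identical. The study counted only reads that map to a single place. Of all windows of 75 bases, the shorter of its read lengths, 43.2% in Tubb2a, 30.2% in Tubb2b and 29.9% in Tubb4b occurred in another annotated transcript, and 0% in the other 5 members. The longest run common to Tubb2a, Tubb2b and the processed pseudogene Tubb2a-ps2 had 154 bases (chr13:34074797-34074950, minus strand, coding bases 856 to 1009 of Tubb2a). It is printed because a read inside it has at least 3 homes.
Tubb2a, Tubb2b and Tubb2a-ps2: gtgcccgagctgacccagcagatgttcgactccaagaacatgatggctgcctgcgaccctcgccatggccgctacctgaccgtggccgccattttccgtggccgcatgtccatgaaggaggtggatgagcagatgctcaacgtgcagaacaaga
The counts of Tubb2a and Tubb2b are therefore uncertain where they could be exchanged, and so are those of Tubb4b, which also overlaps exons of Fam166a on the opposite strand by 121 bp. Tubb3 overlaps the span of Gm20388 on the same strand. Tubb6 (ENSMUSG00000001473) shares no window and no exon with another gene.

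Total counts ranged from 12058875 in sham glia number 3 to 45428465 in kainate neurons number 2. RNA input was near 0.05 ng, with 15 cycles of PCR, for kainate glia number 2 and sham glia number 1, and 1 ng with 10 cycles for the remaining 9. The summed level of 8 neuronal markers was 3199 to 7753 CPM (counts scaled to a common library size, with TMM factors) in neuron libraries and 580 to 864 in glia libraries. All 8 were higher in neurons, and all 5 oligodendrocyte, 6 astrocyte, 5 microglia and 3 pericyte markers were lower. The 4 libraries numbered 1 stood apart, with the lowest TMM factor of their group (0.700 to 0.864) and counts for 69.6% to 78.6% of genes, against 85.6% to 93.9% in the others.

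Tubb2a was the most abundant isotype in neurons and Tubb4a in glia. In sorted bulk nuclei, fewer nuclei of a type and less RNA per nucleus cannot be told apart. Levels are compared between genes as normalized CPM per kilobase of annotated exon, with the mean and SD over pools (n = 3, or 2 in sham glia). In sham neurons, Tubb2a reached 174 ± 63.1 CPM per kilobase and Tubb4a 69.8 ± 43.0. They were followed by Tubb2b with 34.2 ± 21.4, Tubb4b with 32.2 ± 13.4, Tubb3 with 30.3 ± 20.1 and Tubb5 with 22.7 ± 14.7. From Tubb2a down to Tubb5, the libraries of each gene overlapped those of its neighbour in the order, although Tubb2a lay above Tubb4a in 3 of 3 libraries. Tubb6 stood well below them with 1.64 ± 0.255, and Tubb1 last with 0.321 ± 0.176. In kainate neurons the order was the same apart from Tubb4b, which came before Tubb2b, and Tubb2a lay apart from Tubb4a there. With the mean length of annotated transcripts in place of the exon union, Tubb5 moved from rank 6 to rank 4 in sham neurons and from rank 6 to rank 2 in kainate neurons, so the order of the middle isotypes depends on the transcript ends assumed.

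In sham glia, Tubb4a had 503 ± 556 CPM per kilobase and lay above Tubb2a (65.8 ± 37.6) in both libraries, with no overlap. Tubb4b (30.8 ± 24.6), Tubb3 (29.4 ± 24.8), Tubb2b (18.9 ± 11.7) and Tubb5 (17.2 ± 15.7) followed within their spread, then Tubb6 (1.27 ± 0.130) and Tubb1 (0.491 ± 0.502). In kainate glia, Tubb4a and Tubb2a headed the order again with 499 ± 372 and 109 ± 40.6, while Tubb6 had 12.2 ± 2.97 and its libraries overlapped those of Tubb5 (21.96 ± 9.86).

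**Figure D1:**
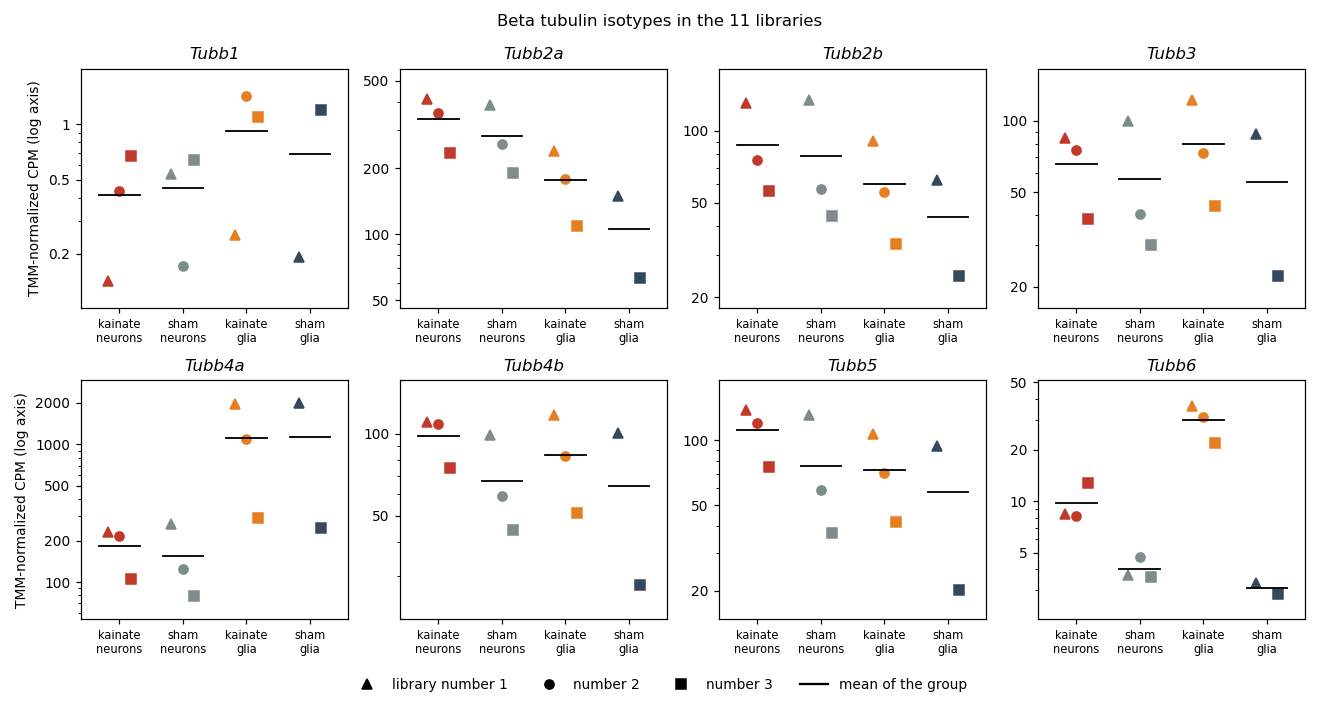
TMM-normalized CPM (log axis, a separate scale for each gene) of the 8 beta tubulin isotypes in kainate neurons, sham neurons, kainate glia and sham glia; each point is 1 library, its shape gives the library number, and the line is the group mean. For Tubb6, the kainate points all lie above the sham points in both cell types, while the libraries numbered 1 were the highest of their group for Tubb2a, Tubb2b, Tubb3, Tubb4a, Tubb4b and Tubb5.

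As a share of the summed CPM per kilobase of the 8 genes, which removes what moves all isotypes of a library together, the make-up differed between the cell types. Tubb2a held 46.7% ± 1.39 of the pool in kainate neurons and 49.3% ± 5.27 in sham neurons (SD, n = 3 each), against 17.0% ± 6.14 in kainate glia and 14.2% ± 8.61 (n = 2) in sham glia. Tubb4a held 18.0% ± 2.30 and 18.3% ± 2.61 in kainate and sham neurons, and 61.2% ± 13.1 and 67.8% ± 15.3 in kainate and sham glia. The ranges of neuron and glia libraries did not overlap for either gene. Tubb3 held from 5.12% ± 1.42 in sham glia to 7.88% ± 1.41 in sham neurons. Tubb6 held 0.365% ± 0.347 of the pool in sham glia and 2.04% ± 1.02 in kainate glia. With mean transcript lengths, the share of Tubb2a in sham neurons was 39.0% ± 4.88, and that of Tubb4a in sham glia 59.8% ± 15.9.

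**Figure D2:**
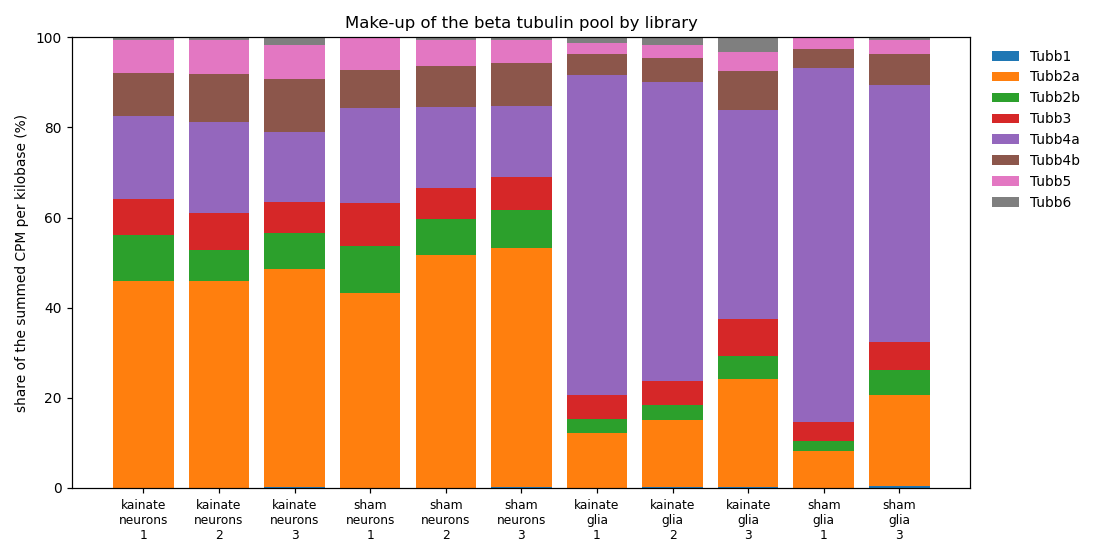
Share of each isotype (%) in the summed CPM per kilobase of annotated exon, as a stacked bar for each of the 11 libraries. Tubb2a takes 43.2% to 52.9% of the pool in the 6 neuron libraries, and Tubb4a takes 46.3% to 78.6% in the 5 glia libraries.

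In neurons of the CLH, the question was whether kainate changed any isotype, and none was called. At a false discovery rate (FDR) below 0.25 in edgeR's quasi-likelihood test over all 40714 genes, 0 of 8 isotypes were called, where 0.165% of all genes were. At an unadjusted p below 0.05 there was 1 isotype, beside 594 higher and 255 lower of all genes. Tubb6 showed the largest difference of the 8, with 8.39, 8.23 and 12.9 normalized CPM in kainate neurons numbers 1 to 3 and 3.69, 4.71 and 3.58 in sham neurons. All 3 kainate libraries lay above all 3 sham libraries, as they did for 4.26% of all genes. The values rest on 118 to 323 counts in kainate and 55 to 164 in sham neurons. The log2 fold change was 1.30 (standard error 0.35, 2.46-fold), with FDR = 0.575, and over 23 alternatives it ran from 1.05 to 1.44 with FDRs of 0.0012 to 1.

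Libraries of 1 number tended to deviate together, so the kainate and sham libraries of 1 number are also set against each other. Their pools hold different mice, so this pairing is an assumption. By number, Tubb6 was higher in kainate neurons in 3 of 3 pairs, by 0.75 to 1.71 on the log2 scale. With the replicate number as a block, 3 of the 8 isotypes were called, all of them higher, where the block called 5.09% of all genes and 3.19% as higher. On the log2 scale, kainate exceeded sham by 1.28 for Tubb6 (standard error 0.27, FDR = 0.0012), by 0.71 for Tubb5 (0.20, FDR = 0.0319) and by 0.60 for Tubb4b (0.19, FDR = 0.084). Tubb6 alone was called by DESeq2's Wald test (FDR = 0.0473) and without the 4 libraries numbered 1 (log2 fold change 1.27, FDR = 0.0481).

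Tubb5 and Tubb4b are the widely made isotypes. Tubb5 had 138.5, 120.5 and 74.9 normalized CPM in kainate neurons and 130.5, 59.0 and 37.3 in sham neurons. Tubb4b had 109.9, 108 and 74.9 in kainate and 98.4, 59.1 and 44.3 in sham neurons. For both genes the groups overlapped, and the kainate library was the higher of its pair in 3 of 3 pairs, least so in the pair numbered 1. Without the block, their log2 fold changes were 0.56 (standard error 0.58) and 0.54 (0.48), with FDR = 1 each. For the isotypes Tubb2a, Tubb2b, Tubb3 and Tubb4a the differences were smaller. Tubb2a had 414.5, 357.5 and 234.5 normalized CPM in kainate and 389.7, 259 and 190 in sham neurons (log2 fold change 0.26, standard error 0.44). Tubb2b (0.16, standard error 0.53), Tubb3 (0.22, 0.58) and Tubb4a (0.24, 0.75) had log2 fold changes below that of Tubb2a, and none was called with the block either, with FDRs from 0.657 to 0.898 for Tubb2a, Tubb2b, Tubb3 and Tubb4a in neurons.

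The 6 astrocyte markers, none of them at 0, summed to 252, 346 and 410 CPM in kainate and 227, 170 and 234 in sham neurons, without overlap. Of these, Gfap, the intermediate filament of astrocytes, had 39.9, 71.5 and 126 CPM in kainate and 24.0, 18.1 and 21.3 in sham neurons, so that kainate neurons number 3 was the highest for both Gfap and Tubb6. No astrocyte marker was called in neurons, while the block called 4 higher and 2 lower. The sums of 5 oligodendrocyte markers overlapped between the groups (185 to 420.5 and 230 to 439 CPM). The 5 microglia markers summed to 62.4 to 66.7 CPM in kainate and 41.2 to 61.4 in sham neurons, without overlap. No microglia marker was called, while the block called 1 higher and 1 lower. The part of other cell types in the neuronal values of Tubb6 was not tested, and neuron and glia libraries of 1 pool share animals, so the neuronal values are not fully independent of the glial ones that chose the family.

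In glia, the contrast that chose the family, Tubb6 had 36.3, 31.15 and 22 normalized CPM in kainate libraries numbers 1 to 3 and 3.32 and 2.88 in sham libraries numbers 1 and 3. Every kainate library lay above both sham libraries, as for 4.7% of all genes. The values rest on 579 to 918 counts in kainate and 52 and 58 in sham glia. The log2 fold change was 3.26 (standard error 0.44, 9.61-fold), the largest of the 8, and by number it was 3.27 and 2.74 in the pairs numbered 1 and 3. Tubb6 was the only isotype past the threshold, where 0.101% of all genes were, and since this contrast chose the family nothing is read from that count. The call was lost without sham glia number 1, without both low-input libraries and in a fit of glia alone, with log2 fold changes from 3.02 to 3.40 over 23 alternatives. The paper also analysed glia separately, over fewer genes after its filter, and lists Tubb6 as upregulated there at FDR below 0.25.

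The other isotypes in glia lay between -0.01 (Tubb4a, standard error 0.84) and 0.73 (Tubb2a, 0.51) on the log2 scale, with overlapping libraries in all 7. These values were loosely fixed, and over 23 alternatives Tubb4a ran from -0.85 to 2.23, Tubb1 from -0.77 to 2.25, Tubb5 from -0.38 to 1.90, Tubb3 from -0.15 to 1.93, Tubb4b from -0.27 to 1.61, Tubb2b from -0.08 to 1.37 and Tubb2a from 0.23 to 1.51. Tubb2a had 240, 178 and 109 normalized CPM in kainate and 149 and 63.1 in sham glia. Tubb4a had 1952, 1092 and 294 in kainate and 1997 and 245 in sham glia, so that library number separated its values and treatment did not. The median over the 8 isotypes was 0.44, beside 0.02 over all genes. With the replicate number as a block the values were 0.74 for Tubb2a (standard error 0.22), 0.73 for Tubb3 (0.24) and 3.19 for Tubb6 (0.34). These 3 were past the threshold, as 5.79% of all genes were, and nothing is read from that count in the contrast that chose the family. Without the libraries numbered 1, which leaves 1 sham glia library, the values were 1.42 for Tubb3, 1.49 for Tubb5 and 3.22 for Tubb6. The astrocyte markers summed to 625 to 3126 CPM in kainate and 1047 to 3999 in sham glia, and the microglia markers to 557 to 1565 and 611 to 3163, with none at 0 throughout and none called. With the block, 1 astrocyte marker was called higher and 3 lower, and 3 oligodendrocyte, 3 precursor and 2 microglia markers were called lower. Gfap, which also labels reactive astrocytes, had 857, 608 and 278 CPM in kainate and 232 and 87.9 in sham glia. The part of cell composition in the glial values of Tubb6 was not tested.

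The kainate effect on Tubb6 was smaller in neurons than in glia, with a difference of -1.97 on the log2 scale (standard error 0.53), and -1.91 (0.42) with the replicate number as a block. These values are given without a test, because they hold the glial contrast. For the other 7 isotypes the difference lay between -0.49 (Tubb1) and 0.25 (Tubb4a), with standard errors of 0.67 to 1.43.

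**Figure D3:**
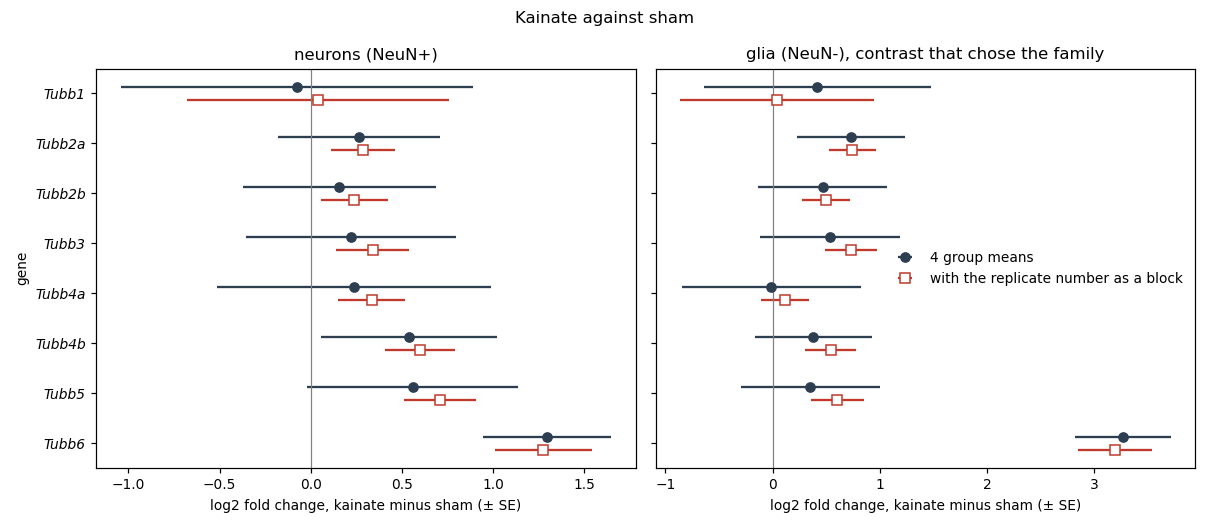
Log2 fold change of kainate against sham with its standard error for the 8 isotypes in neurons and in glia, from the model without a block and with the replicate number as a block. Tubb6 stands at 1.30 in neurons and 3.26 in glia without the block, and with the block Tubb4b stands at 0.60 and Tubb5 at 0.71 in neurons with shorter error bars.

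Tubb2a and Tubb4a differed between the cell types, in opposite directions. Over both treatments, 1 isotype was called higher and 2 lower in neurons than in glia, where 37.2% of all genes were called, 16.8% as higher and 20.4% as lower, so the count of 3 of 8 is at the share of all genes. The median over the 8 was 0.01 on the log2 scale, beside -0.47 over all genes tested. Tubb2a, abundant in neurons, was 2.25-fold higher in neurons (1.17 on the log2 scale, standard error 0.34, FDR = 0.0297), and it was higher in 5 of 5 pools. Its level was 190 to 414.5 normalized CPM in neuron libraries and 63.1 to 240 in glia libraries, so the ranges overlapped across pools. It was called in all 23 alternatives, with log2 fold changes of 0.85 to 1.57.

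Tubb4a, the isotype of oligodendrocytes, was lower in neurons, at -2.72 on the log2 scale (standard error 0.58, FDR = 0.00391). Its level in neurons was 229, 217 and 104 normalized CPM in kainate and 263, 125 and 78.6 in sham libraries, against 1952, 1092, 294, 1997 and 245 in the glia libraries given above. It was lower in neurons in 5 of 5 pools, by 1.49 to 3.09 on the log2 scale in kainate and by 1.64 and 2.92 in sham pools. The 5 oligodendrocyte markers summed to 25860, 11070 and 4631 CPM in kainate glia and 36810 and 8319 in sham glia, the same order of libraries within each group as for Tubb4a. In neurons they summed to 185, 365.5 and 420.5 in kainate and 230, 322 and 439 in sham libraries, the opposite order to Tubb4a. The order in glia was not particular to oligodendrocyte markers. Astrocyte, precursor, microglia and pericyte sums had the same order of glia libraries, and endothelial sums the opposite one. The part of oligodendrocyte content in the level of Tubb4a was not tested. It was called in all 23 alternatives, but the value fell to -1.60 (FDR = 0.0292) without sham glia number 1 and to -1.57 without the libraries numbered 1.

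Tubb3, used as a marker of neurons, was not called between the cell types. It had 84.4, 74.95 and 38.4 normalized CPM in kainate and 99.4, 40.4 and 30.0 in sham neurons, and 122, 73.1 and 43.9 in kainate and 87.7 and 22.1 in sham glia. The groups overlapped throughout, and the log2 fold change was -0.11 (standard error 0.43, FDR = 0.865), whereas all 8 neuronal markers were higher in the same libraries. With the pool as a block it was 0.04 (standard error 0.16), and its sign was not stable over the alternatives. It was higher in neurons in 2 of 2 sham pools, by 0.18 and 0.43, and in 1 of 3 kainate pools, and without the libraries numbered 1 it was called higher (0.43, FDR = 0.205).

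Tubb2b (0.70, standard error 0.40, FDR = 0.268, called in 11 of 23 alternatives), Tubb5 (0.50, 0.44, FDR = 0.447), Tubb4b (0.14, 0.36, FDR = 0.796) and Tubb1 (-0.88, 0.71, FDR = 0.416) were not called. Neuron and glia libraries of 1 pool come from the same hippocampi, and with the pool as a block Tubb2b (0.77, FDR = 0.00289), Tubb5 (0.67, FDR = 0.0093) and Tubb4b (0.30, FDR = 0.217) were called higher as well, where 59.7% of all genes were called. Without the libraries numbered 1, Tubb2b (0.93, FDR = 0.00601), Tubb5 (1.15, FDR = 0.000844) and Tubb4b (0.79, FDR = 0.0197) were called higher and Tubb1 (-1.25, FDR = 0.0652) lower. Tubb6 was past the threshold with -0.62 (standard error 0.26), a value that rests on the kainate glia libraries which chose the family and is a description. It was short of the threshold in 6 of 23 alternatives, with -0.28 without the libraries numbered 1.

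In sham alone the direction of Tubb6 was the other way, with 3.58 to 4.71 normalized CPM in neurons above 2.88 and 3.32 in glia. All 3 neuron libraries lay above both glia libraries, as for 14.4% of all genes, and the log2 fold change was 0.37 (standard error 0.40). The sham glia libraries are also part of the contrast that chose the family, so these values of Tubb6 are a description and nothing is read from the share. Tubb2a (1.40, standard error 0.52, FDR = 0.14) and Tubb4a (-2.85, 0.85, FDR = 0.0522) were called in sham, 2 of 8 isotypes where 16.7% of all genes were. With the pool as a block these 2, Tubb2b (0.97, FDR = 0.0173) and Tubb5 (0.67, FDR = 0.102) were called, where 34% of all genes were. Without the libraries numbered 1, which leaves a single sham glia library, the sham values were 2.00 for Tubb2a, 1.42 for Tubb5, 1.21 for Tubb2b and -1.10 for Tubb4a. The sham call of Tubb4a was lost without sham glia number 1 (-0.62, FDR = 0.596), without both low-input libraries (-0.62, FDR = 0.628), with low input as a covariate (-1.72, FDR = 0.485) and at an FDR below 0.05, and that of Tubb2a without sham neurons number 1 (1.08, FDR = 0.392) or sham glia number 3 (0.91, FDR = 0.38).

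**Figure D4:**
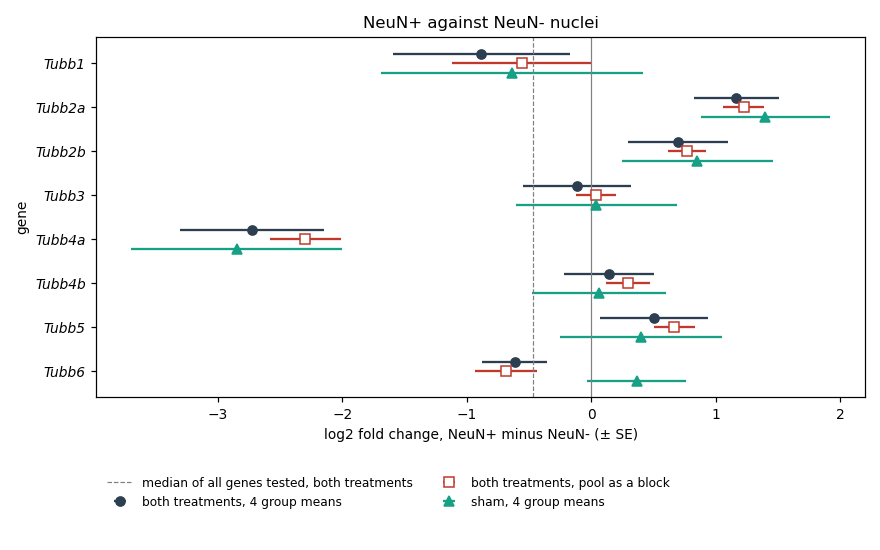
Neurons against glia for the 8 isotypes as log2 fold change, over both treatments with and without the pool as a block, and in sham without it; error bars are standard errors and the dashed line is the median of all genes. Tubb2a lies above 0 and Tubb4a below 0 in every fit shown, and Tubb6 lies below 0 over both treatments and above 0 in sham.

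Tubb1, the platelet isotype, was close to the limit of the counts, with 0.142 to 0.676 normalized CPM in neurons and 0.192 to 1.43 in glia libraries. Kainate and sham overlapped in both cell types, with log2 fold changes of -0.08 (standard error 0.96) in neurons and 0.42 (1.06) in glia.

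The libraries numbered 1 were the highest of their group in 4 of 4 groups for Tubb2a, Tubb2b, Tubb3, Tubb4a, Tubb4b and Tubb5, in 2 for Tubb6 and in none for Tubb1. Relative to the other libraries of the group they were 1.42 to 4.66 times as high for Tubb5 and 0.795 to 1.37 times for Tubb6. The same libraries gave more counts to the processed pseudogenes of the family, which have no introns and share sequence with their parents. Per 100 counts of Tubb2a, Tubb2a-ps2 had 5.70 to 6.62 counts in the 4 libraries numbered 1 and 0.599 to 1.65 in the other 7. Per 100 counts of Tubb4b, Tubb4b-ps1 had 37.0 to 38.5 and 13.4 to 25, without overlap, and Tubb4b-ps2 had 6.73 to 9.35 and 0.848 to 6.92. The reason was not tested, and the counts of Tubb2a and Tubb4b are uncertain to that extent.

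**Figure D5:**
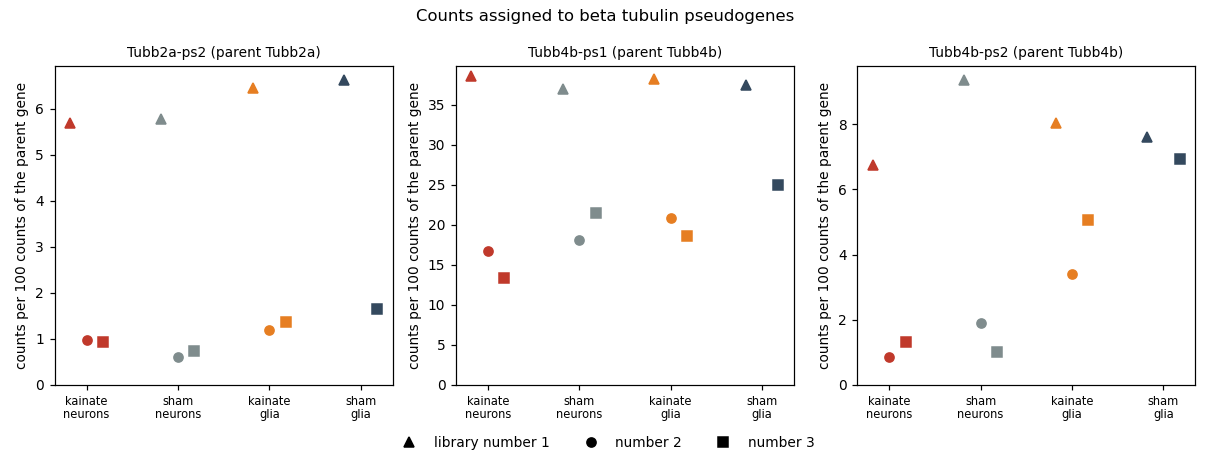
Counts of each processed pseudogene per 100 counts of its parent gene in the 11 libraries, by library number. The 4 libraries numbered 1 lie above the other 7 for Tubb2a-ps2 and Tubb4b-ps1, and the ranges overlap for Tubb4b-ps2.

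Genes that fold, modify or bind tubulin were taken up in 7 lists. These held 8 alpha tubulins, 4 other tubulins, 21 folding factors, 25 modifying enzymes, 19 microtubule-associated proteins, 8 plus-end proteins and 12 stathmins and severing enzymes. For kainate, 0 of the 97 genes were called by edgeR in neurons or in glia, with 0 and 4 at an unadjusted p below 0.05. Of all 40714 genes tested, 594 were higher and 255 lower at that p in neurons, and 551 and 283 in glia. With the replicate block, 5 of the 97 (5.15%) were called in neurons, near the 5.09% of all genes, with Vash2 (0.83), which with its partner removes the terminal tyrosine of alpha tubulin, Dclk1 (0.82) and Stmn4 (0.71) higher and Mtus2 (-0.65) and Map7 (-0.77) lower. In glia the block called 17 of the 97 (17.5%), beside 5.79% of all genes, 5 of them higher and 12 lower, where 2.93% of all genes were higher and 2.86% lower. In the same fit 3 astrocyte, 3 oligodendrocyte, 3 precursor and 2 microglia markers were lower and 1 astrocyte marker was higher, with list medians without the block of -0.47, -0.72, -1.14 and -0.75, and their part in the list calls was not tested. Those of smallest FDR were Map6d1 (-1.44), the plus-end protein Clasp2 (-1.28) and tau, Mapt (-1.19), all lower, while the folding cofactor Tbcc (0.99) and Map6 (0.83) were higher.

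Between neurons and glia, the counts of the lists stand beside 37.2% of all genes called, 16.8% higher and 20.4% lower, and those of the alpha, other, folding and plus-end lists are near or under that share. Of the alpha tubulins, 2 of 8 were called higher, Tuba4a (1.55) and Tuba8 (1.14), and 1 lower, Tubal3 (-1.64). The gamma tubulin Tubg2 (1.82), which nucleates microtubules, was the 1 called of the 4 other tubulins. Of the folding factors, 2 were higher, the cofactor Tbce (1.68) and Tbcel (0.49), and 1 lower, the prefoldin subunit Vbp1 (-0.74). Of the modifying enzymes 9 were higher, among them Ttll11 (1.83), which adds glutamate chains, and Agbl4 (1.70) and Agbl5 (1.03), which shorten them, and 5 were lower, among them the deacetylase Sirt2 (-1.94), Agbl2 (-1.29) and Ttll5 (-0.71).

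Of the 19 microtubule-associated proteins, 9 were higher, with Mtus2 (2.50), the dendritic protein Map2 (2.19) and Map9 (1.86) of smallest p, and 6 lower, with Mtus1 (-3.21), Tppp3 (-2.50) and Map7 (-2.21). Of the 8 plus-end proteins, Clip1 (1.40) and Clasp1 (0.79) were higher and Clasp2 (-0.73) lower. Of the stathmins, which bind free dimers, and the severing enzymes, 5 were higher, among them Stmn3 (1.95) and Stmn2 (1.79), and 4 lower, among them Fign (-3.82), Stmn4 (-1.59) and Fignl1 (-1.44). The list medians ran from -0.54 for alpha tubulins to 0.51 for microtubule-associated proteins, beside -0.47 over all genes.

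The genes whose pattern was most like that of Tubb6 over the 11 libraries were Emp1 (Pearson r = 0.97), Timp1 (0.967), Syt6 (0.963), Aen (0.963), Hspb1 (0.958) and Cd44 (0.958), among 24721 genes with a mean of at least 1 CPM and on the scale of log2(CPM + 1). The libraries share pools and depth, and the values are a description. Cd44, a cell surface receptor for hyaluronan, had 124 ± 57.0 CPM in kainate glia and 9.44 ± 3.69 in sham glia, and 21.0 ± 8.26 and 7.21 ± 2.15 in kainate and sham neurons. Timp1, an inhibitor of matrix metalloproteinases, had 17.6 ± 11.7 and 0.355 ± 0.221 in kainate and sham glia, and 6.02 ± 1.76 and 0.607 ± 0.366 in kainate and sham neurons. Like Tubb6, both had their highest mean in kainate glia and the next in kainate neurons. For Tubb3 the most alike were Pou3f1 (0.976), Slc25a5 (0.973), Gm10698 (0.972), Ddx19a (0.972), Txn2 (0.97) and Extl3 (0.969). Pou3f1 had 58.2 ± 30.6 CPM in sham neurons and 52.6 ± 43.1 in sham glia, and its spread, like that of Tubb3, lay within groups.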

How the data were processed

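The authors trimmed reads with Trim Galore 0.4.3, aligned them with Rsubread to GRCm38 (mm10) and deposited raw counts per gene from featureCounts on the GENCODE annotation, using uniquely mapped reads. Strand setting and read format per library are not given in the sources used here. The SMART-Seq libraries carry no molecular identifiers, so the counts are of reads and not of molecules. Total counts were 12058875 to 45428465 per library. The 11 methylation samples were not analysed here.

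Counts were fitted in R 4.3.3 with edgeR 4.0.16 (quasi-likelihood test, TMM scaling, 4 group means over 11 libraries, minimum count 10, Benjamini-Hochberg FDR below 0.25 over 40714 genes, 105 genes without a symbol left out). DESeq2 1.42.0, other scalings and filters, blocks, a low-input covariate and left-out libraries were alternatives. Only the edgeR fit without a block was tried on simulated counts, for kainate in neurons and in glia. Those counts held no deviation by library number. P-values rest on the spread between the libraries of a group, or with a block on the spread left after it. Without the block by pool, neuron and glia libraries of 1 pool were treated as independent.

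Libraries of 1 number deviated together. The correlation of deviations from the group means was 0.744, 0.154 and 0.593 between kainate and sham neurons, and 0.827 and 0.839 in glia. Between neurons and glia of the same pool it was 0.326 to 0.698. Deviations within a group cancel out, so values of different numbers are not independent. The deviations of the 2 sham glia libraries mirror each other. Kainate and sham pools of 1 number hold different mice, so the block by number assumes a pairing that these values cannot establish.

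Gene lengths, positions and sequences came from a GRCm38 annotation. All 8 members were named, with the 6 genes most like Tubb6 and Tubb3, list genes called for kainate, up to 3 called genes per direction and list between the cell types, and, chosen for the text after their values were seen, genes called for kainate with the block (all 5 in neurons, 5 of 17 in glia). A gene that the rule for the cell types would name is not reported here. Members and lists were chosen with earlier results of these data known.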

Additional observations from a re-analysis of the deposited data

Results flagged for a closer look

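The kainate effect on Tubb6 differed between neurons and glia, by -1.91 on the log2 scale (standard error 0.42) with the replicate number as a block and by -1.97 (0.53) without it. Since the family was chosen on the glial contrast, this is a description. The test for a single outlying library was not applied to groups of 2 or 3.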

How the results depend on the processing

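The count of isotypes called was 0 for kainate in neurons, 1 in glia, 0 for their difference, 3 between neurons and glia and 2 in sham. With the replicate block within each cell type these counts were 3, 3, 1, 6 and 4, and with the block by pool 6 between the cell types and 4 in sham. The block changed no other call of an isotype. Without the 4 libraries numbered 1, chosen after seeing the data, Tubb6 alone was called for kainate in neurons. That fit leaves a single sham glia library, so no counts are given for its other comparisons. Between the cell types, 5 were called with the newer quasi-likelihood method, with the low-input covariate and without both low-input libraries. There were 2 with no filter on low counts and 4 when 3 libraries had to reach 1 CPM. In sham, 1 was called with that covariate. In glia, 0 were called without both low-input libraries, in the separate fit and at an FDR below 0.05, which also left 0 in sham. DESeq2 called 1 for kainate in neurons. The causes were not tested.

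Leaving out single libraries gave 0 to 1 calls for kainate in glia, 2 to 7 between the cell types and 1 to 4 in sham, a lone sham glia library being assumed to vary like the other groups. Signs turned over these libraries for kainate in neurons in Tubb1 (-0.57 to 0.30), Tubb2b (-0.26 to 0.79), Tubb3 (-0.083 to 0.91) and Tubb4a (-0.080 to 0.85), between the cell types in Tubb1 (-1.24 to 0.041), Tubb3 (-0.46 to 0.57) and Tubb4b (-0.18 to 0.77), and in sham in Tubb5 (-0.32 to 1.94). Tubb1 in neurons also turned to 0.075 with the newer method, 0.040 with the block and 0.35 without the libraries numbered 1. Tubb3 between the cell types turned to 0.040 with the pool block, 0.28 with the covariate, 0.54 without the low-input libraries and 0.43 without those numbered 1. With mean transcript lengths the share of Tubb2a in sham neurons was 39.0%.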

Other observations

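Over the 11 libraries, the levels of the isotypes on the log2 scale were closest for Tubb4b and Tubb5 (Pearson r = 0.976), Tubb2b and Tubb5 (0.936) and Tubb3 and Tubb4b (0.934). Tubb2a and Tubb4a, the leading isotypes of neurons and glia, had r = -0.149, and Tubb6 had 0.0638 to 0.417 with the other 7. The libraries share pools and the deviation of those numbered 1, and these values are a description.

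Itga2b, the platelet integrin listed beside Tubb1, had 24.2, 37.6 and 45.9 normalized CPM in kainate neurons and 10.0, 9.30 and 11.3 in sham neurons, without overlap, and 20.9, 17.7 and 23.9 in kainate glia and 3.26 and 11.55 in sham glia, again without overlap. Tubb1 overlapped between kainate and sham in both cell types. Itga2b was picked after its values were seen. The median log2 fold change of the 4 platelet markers was 0.05 in neurons, with 0 called and 1 called with the block. In glia the median of these 4 was -0.27, the other direction to Itga2b, with 0 called and 1 called with the block.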
